A study of Mus musculus with 13 samples.

Results

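The genes described here are 8 members of the IL-1 and IL-33 axis, chosen by name: the ligands Il1a, Il1b, Il33 and Il18, the receptor antagonist Il1rn, and the receptor chains Il1r1, Il1rap and Il1rl1. Each symbol matched 1 gene among the 57010 genes listed in the expression files, and 6 of the 8 had enough counts to be tested beside the 15034 genes tested in all. Il1a and Il1b were too low to test. The cells were wild-type mouse embryonic fibroblasts (MEFs) of mice numbered 4, 5 and 6, profiled by bulk RNA-Seq in 4 groups of 3 mice. Control MEFs received vehicle. Untreated senescent MEFs (SnCs) had been exposed for 24 h to 2 µM etoposide, a topoisomerase inhibitor that breaks DNA, and then kept for 5 days in normal medium. The remaining groups were such SnCs given 100 or 300 µg/mL Fucoidan-FV, the fucoidan (a sulfated polysaccharide) of Fucus vesiculosus, a brown alga, with RNA taken after 12 h of treatment. Control mouse 5 had a pair of libraries, 5(1) and 5(2), whose counts were summed. Etoposide treatment without Fucoidan-FV is the sole senescent reference, and Fucoidan-FV on non-senescent MEFs is not part of the comparisons.

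Levels are given as CPM, that is counts relative to library size after scaling by edgeR's TMM factors, and a gene was called changed where edgeR's quasi-likelihood test gave an adjusted p below 0.05 with a log2 fold change above 1 or below −1. The 13 libraries held 22782536 to 31278750 expected counts. Fibroblast markers were abundant in every sample, with 9 genes (among them the collagens Col1a1 and Col1a2, and Vim) summing to 10595 to 16509 CPM. Of these, 8 had a mean of 1 CPM or more in control MEFs and in untreated SnCs, and 9 at each dose. The 10 macrophage markers summed to 3.39 to 18.5 CPM, the highest value in the senescent group, and the 5 T cell and innate lymphoid cell markers to 0.517 to 1.88 CPM. The 6 skeletal muscle markers, of which 1 had a mean of 1 CPM or more in each group, summed to 21.9 to 74.6 CPM in control MEFs, 73.3 to 267 CPM in untreated SnCs, 78.9 to 97.3 CPM at 100 µg/mL and 37.5 to 76.8 CPM at 300 µg/mL. The 7 mast cell markers summed to 0 to 1.32 CPM. Among them Fcer1a and Mcpt4 had no count in any sample, while all others had counts at 100 µg/mL. In bulk RNA a change in the share of cells that express a gene and a change in RNA per cell cannot be told apart. Libraries 5(1) and 5(2) of the same mouse differed in the counts of genes with over 95% of their exonic sequence in a single annotated transcript. The median difference was 2.24 on the log2 scale over 1989 such genes (5(2) above 5(1)), against −0.14 over 7861 genes with under 50% single-transcript sequence. Of the members, Il1a consists wholly of such sequence, Il1b by 72.9%, Il1rn by 51.5%, and the other 5 by 8.58% to 45.6%.

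Interleukin-1 signals when IL-1α or IL-1β binds the receptor chain IL1R1, which then recruits the accessory protein IL1RAP and, through MyD88 and IRAK kinases, activates NF-κB and MAP kinases. IL1RN, the IL-1 receptor antagonist, occupies IL1R1 without recruiting the accessory chain. IL-33 uses the same accessory protein with its own receptor ST2, the product of Il1rl1, which is also made in a soluble form that traps the ligand. IL-18 belongs to the same family and signals through a separate receptor pair. In fibroblasts and senescent cells the pathway is known for driving cytokines, chemokines and matrix proteases, with cell-bound IL-1α as an upstream signal of the senescence-associated secretory phenotype.

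The upstream sequences of the 3 members with a called change, Il1r1, Il33 and Il1rn, are shown to give their genomic setting. They are RefSeq promoter windows (250 bases before an annotated start, table build GRCm38.p6), located by a single exact match in GRCm39 on the plus strand and cut before the first annotated exon base. Capitals mark matches, on either strand, to GGG, any 3 bases, then TTCC (NF-κB-like), TGANTCA (AP-1-like), TTGCNNAA (C/EBP-like) or TATAAA.
Il1r1, first start, chr1:40263990-40264173: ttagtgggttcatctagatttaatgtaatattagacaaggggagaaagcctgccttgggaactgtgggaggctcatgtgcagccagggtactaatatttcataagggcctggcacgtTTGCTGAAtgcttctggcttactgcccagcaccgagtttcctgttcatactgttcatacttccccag
Il1r1, second start, chr1:40305496-40305697: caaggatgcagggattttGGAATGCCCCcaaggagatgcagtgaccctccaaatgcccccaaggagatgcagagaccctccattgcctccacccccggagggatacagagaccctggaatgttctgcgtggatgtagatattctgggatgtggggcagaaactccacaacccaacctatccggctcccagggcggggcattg
Il33, first start, chr19:29902263-29902482: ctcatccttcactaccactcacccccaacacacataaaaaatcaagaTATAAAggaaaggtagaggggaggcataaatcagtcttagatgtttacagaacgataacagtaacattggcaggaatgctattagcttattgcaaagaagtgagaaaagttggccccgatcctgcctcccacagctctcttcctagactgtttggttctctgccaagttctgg
Il33, second start, chr19:29922940-29923141: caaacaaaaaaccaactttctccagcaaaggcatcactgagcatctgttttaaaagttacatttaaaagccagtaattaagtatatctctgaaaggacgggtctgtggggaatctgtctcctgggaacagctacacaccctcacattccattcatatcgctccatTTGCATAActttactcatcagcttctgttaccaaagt
Il1rn, first start, chr2:24226622-24226864: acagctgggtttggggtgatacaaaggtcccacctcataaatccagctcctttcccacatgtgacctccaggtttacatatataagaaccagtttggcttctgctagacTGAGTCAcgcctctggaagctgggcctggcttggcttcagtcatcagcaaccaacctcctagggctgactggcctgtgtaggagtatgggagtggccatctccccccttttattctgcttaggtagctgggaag
Il1rn, second start, chr2:24235053-24235299: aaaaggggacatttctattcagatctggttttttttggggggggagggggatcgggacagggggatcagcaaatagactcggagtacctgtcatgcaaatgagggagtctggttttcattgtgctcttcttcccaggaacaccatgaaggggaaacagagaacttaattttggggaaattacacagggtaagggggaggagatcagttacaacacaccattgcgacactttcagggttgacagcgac

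All 8 members matched this table, with 13 windows among them. The NF-κB-like letters occurred in the second Il1r1 window and in a further Il1rn window that overlaps the second, where the match lies within an annotated exon and is not shown. In the second Il33 window a TATAAA match starts 29 bases before the RefSeq start, within an exon of the GENCODE annotation, and is likewise not shown. Of all 32851 windows of this length in the table, 4.65% hold the NF-κB-like letters, 6.75% the AP-1-like letters, 9.56% the C/EBP-like letters and 12.4% TATAAA. Il1a and Il1b, on the minus strand of chromosome 2, have TATAAA 32 and 31 bases before their RefSeq starts. In these windows 44 and 0 bases come before the first annotated exon base of any gene, so both matches lie past it. These matches describe the letters alone, and binding was not measured.

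The members were expressed at low to moderate levels and in different order in the 4 groups. On RSEM's TPM scale, which corrects for transcript length and so allows levels of different genes to be compared, Il1rl1 was highest in control MEFs at 10.3 ± 7.03 TPM (mean ± SD, n = 3 for all such values). Il1r1 followed at 6.28 ± 0.838 TPM, Il1rn at 6.26 ± 5.63 TPM and Il1rap at 4.67 ± 1.10 TPM and the values of these 4 genes overlapped. Il18 was at 1.79 ± 1.55 TPM, and Il33 and Il1a were at most 0.1 TPM in any control mouse.
In untreated SnCs the receptor Il1r1 had a mean of 2.60 ± 1.23 TPM, below the means of Il1rn (11.5 ± 5.46 TPM), Il1rl1 (10.1 ± 6.84 TPM), Il1rap (5.39 ± 3.55 TPM) and Il18 (5.15 ± 2.26 TPM), and overlapped with Il1rap and Il18 over mice. At 100 µg/mL Fucoidan-FV the highest mean levels were those of Il1rn (19.5 ± 3.73 TPM) and Il1r1 (13.9 ± 6.33 TPM), whose ranges over mice overlapped, and at 300 µg/mL again those of Il1rn (18.4 ± 2.94 TPM) and Il1r1 (12.4 ± 4.27 TPM). Il1rl1, at 10.7 ± 1.59 and 9.93 ± 2.08 TPM at the doses, lay within the range of Il1r1 at each. At 300 µg/mL Il1rap (7.22 ± 4.06 TPM) overlapped Il1r1 as well. Il33 was at 6.95 ± 9.51 TPM and 4.69 ± 5.20 TPM in these groups. TPM of Il1rn depends on which transcripts RSEM assigned reads to: its mean transcript length was 596 bases in library 5(1) and 1174 bases in library 5(2) of the same control mouse, and ran from 596 to 2197 bases over the control libraries and from 1303 to 2193 bases over the others. Comparisons between groups therefore use CPM.

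**Figure D1:**
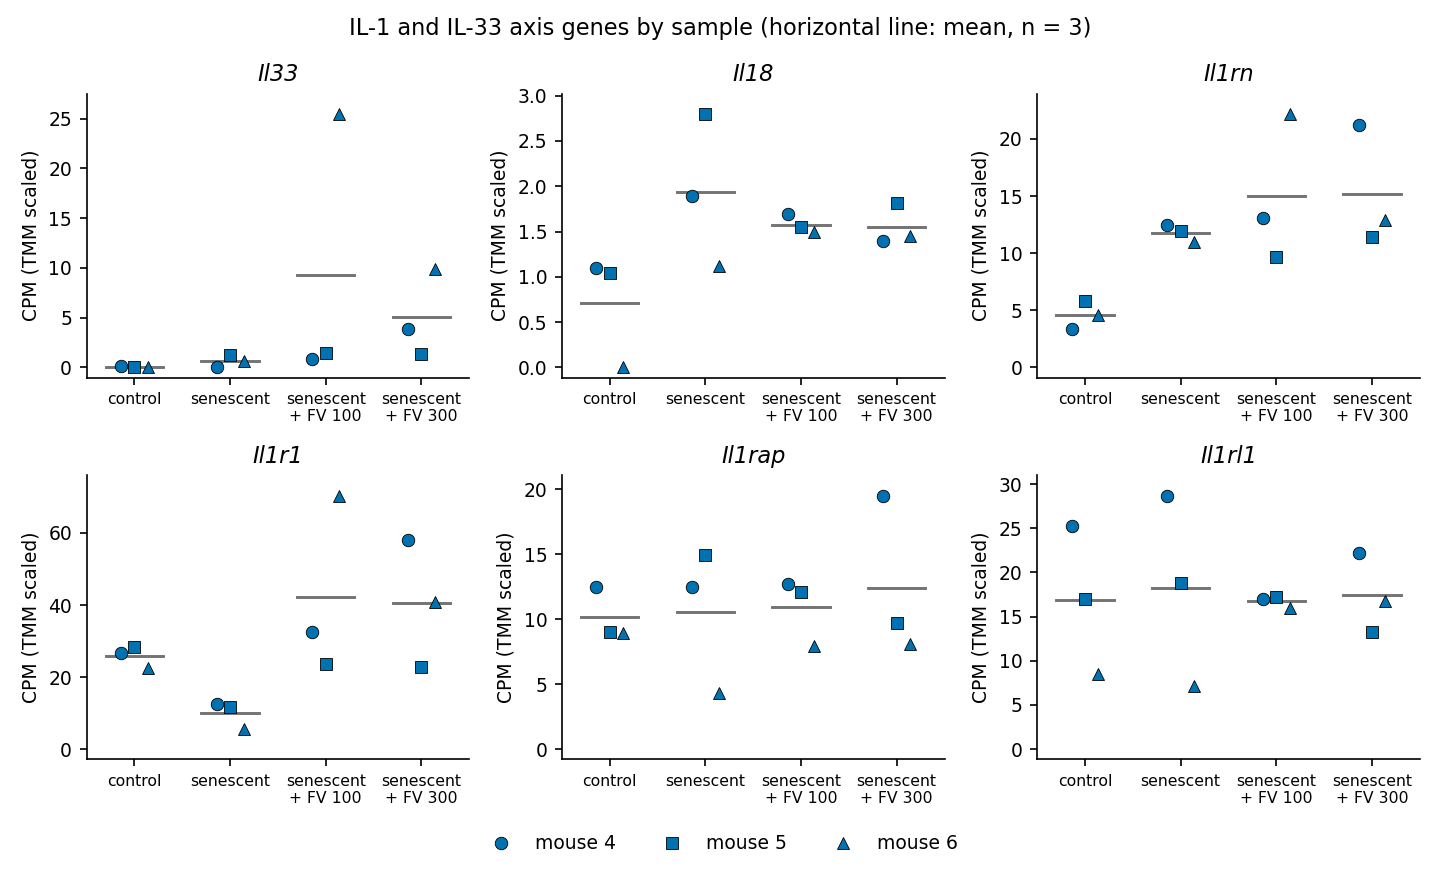
CPM (TMM scaled, linear axes from 0) of the 6 tested members in each of the 12 samples. Circles, squares and triangles are mice 4, 5 and 6, horizontal lines are means of 3 mice, and FV 100 and FV 300 are µg/mL Fucoidan-FV. Il1r1 in untreated SnCs (5.47 to 12.6 CPM) lies below every other sample, and Il33 is highest in mouse 6 at 100 µg/mL (25.5 CPM).

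Il1a (ENSMUSG00000027399, chromosome 2, 129140291 to 129152098 in GRCm39) encodes IL-1α, an alarmin that acts from the cell surface or on release. It had 3 counts in control mouse 4, 3 in control mouse 6 and 1 in control mouse 5, and no count in any of the 9 senescent samples. A count of 0 allows up to 3 counts, which is 0.0939 to 0.129 CPM in these samples, and every control value lies at or below that count.
Il1b (ENSMUSG00000027398, chromosome 2, 129206490 to 129213059) encodes IL-1β, which must be cleaved before it is active. It had no count in control MEFs, 1 count in senescent mouse 6, 1 in mouse 4 at 100 µg/mL and 2 in mouse 5 at 300 µg/mL. Neither IL-1 ligand was detectable above the floor of 3 counts in a sample of any group, so no fold is given, and the floors cover counting error alone. Tested with no filter beyond 1 count, their adjusted p in each comparison was at least 0.182.

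Il33 (ENSMUSG00000024810, chromosome 19, 29902483 to 29938933) encodes IL-33, a nuclear alarmin of fibroblasts and barrier cells. It had 4, 1 and 0 counts in control mice 4, 5 and 6, and 2, 30 and 20 counts in the same order in untreated SnCs (0.0639, 1.29 and 0.680 CPM). At 100 µg/mL Fucoidan-FV the counts were 27, 37 and 738 (0.845, 1.4 and 25.5 CPM), and at 300 µg/mL 99, 38 and 239 (3.84, 1.35 and 9.91 CPM). Mouse 6 was the highest of its group at both doses, while mouse 5 had nearly the same level in all 3 senescent groups.
Compared with untreated SnCs, the log2 fold change of Il33 was 3.78 at 100 µg/mL (SE 1.34, adjusted p = 0.135) and 2.90 at 300 µg/mL (SE 1.3, adjusted p = 0.306). Neither passed the test, although Il33 was higher in 3 of 3 mice at each dose, in mouse 5 by a small margin. At 300 µg/mL the treated and untreated values did not overlap, by a margin as small (1.35 against 1.29 CPM, both of mouse 5). By mouse number the log2 ratio at 100 µg/mL was 3.73, 0.12 and 5.23 for mice 4, 5 and 6, and at 300 µg/mL 5.91, 0.06 and 3.87. Without mouse 6 of the treated group the log2 fold change was 0.73 at 100 µg/mL (adjusted p = 0.773) and 1.95 at 300 µg/mL (adjusted p = 0.656), and without mouse 5 of untreated SnCs it was 4.66 and 3.79. With no filter on low counts both differences were called (adjusted p = 0.000237 and 0.00864), and this was the one of 22 alternatives that called them. Between untreated SnCs and control MEFs the log2 fold change was 3.46 (SE 1.62, adjusted p = 0.199), with overlapping values, and only the alternative with no filter on low counts called it (adjusted p = 0.00716). It was 5.23 without control mouse 4, 2.85 without control mouse 5 and 2.61 without senescent mouse 5. Il33 passed the count filter only with samples of the treated groups, and was left out of the fit of SnCs and control MEFs alone.

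Il18 (ENSMUSG00000039217, chromosome 9, 50466081 to 50493633) encodes IL-18, like IL-1β a precursor that caspase-1 cleaves. Its level was 1.10 and 1.04 CPM in control mice 4 and 5, and control mouse 6 had no count, which allows up to 0.141 CPM. Untreated SnCs had 1.89, 2.80 and 1.12 CPM in mice 4, 5 and 6, above all control values by a small margin, and both treated groups lay between 1.4 and 1.81 CPM. The difference between SnCs and control MEFs did not pass the test (log2 fold change 1.41, SE 0.91, adjusted p = 0.376), nor did those of the doses against SnCs (−0.29 and −0.31, SE 0.89 for each).

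Il1rn (ENSMUSG00000026981, chromosome 2, 24226865 to 24241506) encodes the IL-1 receptor antagonist, and was the one member called between untreated SnCs and control MEFs, where it rose. Control MEFs had 3.36, 5.79 and 4.61 CPM in mice 4, 5 and 6, and untreated SnCs had 12.5, 11.9 and 11 CPM. The groups did not overlap: every senescent mouse was above the highest control mouse.
The rise was 2.57-fold (log2 fold change 1.36, SE 0.37, adjusted p = 0.0295), from 4.58 ± 1.22 to 11.8 ± 0.715 CPM, and it was seen in 3 of 3 mice. So 1 of the 6 tested members was called in a comparison in which 8.42% of all tested genes were. With the mouse number as a block in the fit the adjusted p of Il1rn was 0.055, in a fit of the 2 groups alone 0.08, and without mouse 4 of the control or the senescent group 0.0784 or 0.0571. The libraries of control mouse 5 gave 3.64 CPM in 5(1) and 7.51 CPM in 5(2) for Il1rn, unscaled by TMM, and with 5(2) alone the adjusted p was 0.0889.
Fucoidan-FV did not move Il1rn past the test. At 100 µg/mL it was at 13.1, 9.69 and 22.2 CPM in mice 4, 5 and 6 (log2 fold change against SnCs 0.35, SE 0.36, adjusted p = 0.652). At 300 µg/mL it was at 21.2, 11.4 and 12.9 CPM (0.36, SE 0.36, adjusted p = 0.712). The treated values lay around and above those of untreated SnCs and overlapped them, with the spread over mice wider than in untreated SnCs (SD 6.49 and 5.29 CPM). Macrophages also express this gene. The summed macrophage markers were 3.57 to 5.27 CPM in control MEFs, 3.39 to 18.5 CPM in untreated SnCs, 7.23 to 16.6 CPM at 100 µg/mL and 5.35 to 13.5 CPM at 300 µg/mL, with a mean of 1 CPM or more for 2, 3, 4 and 3 of the 10 genes and none of the 10 at 0 in any group. The summed skeletal muscle markers were also higher in SnCs than in control MEFs, with ranges that overlapped. The part of either set in the level of Il1rn was not tested.

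Il1r1 (ENSMUSG00000026072, chromosome 1, 40264174 to 40356417) encodes the signalling receptor of IL-1α and IL-1β, and was the one member called at either dose of Fucoidan-FV against untreated SnCs, where it rose. Control MEFs had 26.8, 28.4 and 22.4 CPM in mice 4, 5 and 6, and untreated SnCs had 12.6, 11.6 and 5.47 CPM. With 100 µg/mL Fucoidan-FV the values were 32.4, 23.6 and 70.4 CPM, and with 300 µg/mL 58.1, 22.8 and 40.8 CPM. Untreated SnCs were thus below every control and every treated sample, and the treated groups overlapped with control MEFs and with each other.
Against untreated SnCs (9.91 ± 3.88 CPM) Il1r1 rose 4.25-fold at 100 µg/mL to 42.2 ± 24.9 CPM and 4.09-fold at 300 µg/mL to 40.5 ± 17.7 CPM. The log2 fold changes were 2.09 (SE 0.45, adjusted p = 0.0229) and 2.03 (SE 0.45, adjusted p = 0.0353). It was higher in 3 of 3 mice at each dose, by 1.36, 1.02 and 3.69 on the log2 scale for mice 4, 5 and 6 at 100 µg/mL and by 2.20, 0.97 and 2.90 at 300 µg/mL. In these comparisons 2.69% and 1.64% of all tested genes were called. Both comparisons use the same senescent samples.
The direction held in all 23 alternatives at each dose, while the adjusted p did not stay under 0.05. At 100 µg/mL the adjusted p was 0.0497 with the mouse number as a block, 0.0699 with the 2 groups alone, 0.0526 without mouse 4 of that dose and 0.0836 without mouse 6 of that dose, where the log2 fold change was 1.5. At 300 µg/mL it was 0.0742 with the block, 0.0702 with the 2 groups alone, 0.125 and 0.138 without mouse 4 or mouse 6 of that dose, 0.0596 and 0.0691 without mouse 5 or mouse 6 of untreated SnCs, and 0.0542 without mouse 4 of the lower dose. The log2 fold change stayed between 1.5 and 2.43 at 100 µg/mL and between 1.63 and 2.32 at 300 µg/mL. The 6 endothelial markers, of a cell type that also expresses Il1r1, summed to 1.32 to 2.21 CPM in control MEFs, 1.47 to 3.30 CPM in SnCs, 5.95 to 11.7 CPM at 100 µg/mL and 5.23 to 8.36 CPM at 300 µg/mL, with Tie1 at 0 in SnCs and at 300 µg/mL. The 7 epithelial markers summed to 15.8 to 33.0, 6.90 to 17.5, 1.80 to 3.37 and 1.86 to 2.88 CPM in the same order, with Krt14 at 0 in all groups but that at 100 µg/mL and Krt5 at 0 in SnCs. A mean of 1 CPM or more was reached by 0, 0, 1 and 1 of the endothelial markers in that order. Of the epithelial markers 1 reached it in each group. The part of such cells, or of cells with the skeletal muscle markers given above, in Il1r1 or Il33 was not tested.
Between untreated SnCs and control MEFs the log2 fold change of Il1r1 was −1.38, with an SE of 0.44 and an adjusted p of 0.0602, lower in 3 of 3 mice with groups that did not overlap (9.91 ± 3.88 against 25.9 ± 3.13 CPM). This missed the threshold, and passed it in 8 of the 23 alternatives, among them DESeq2 (adjusted p = 0.013). Only 8.58% of its exonic bases lie in a single transcript, and its mean transcript length varied little, from 5124 to 5294 bases over all libraries. The libraries of control mouse 5 still gave 30.8 CPM in 5(1) and 20.7 CPM in 5(2) for Il1r1, unscaled by TMM. For SnCs against control MEFs its adjusted p was 0.048 with 5(1) alone and 0.101 with 5(2) alone.

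**Figure D2:**
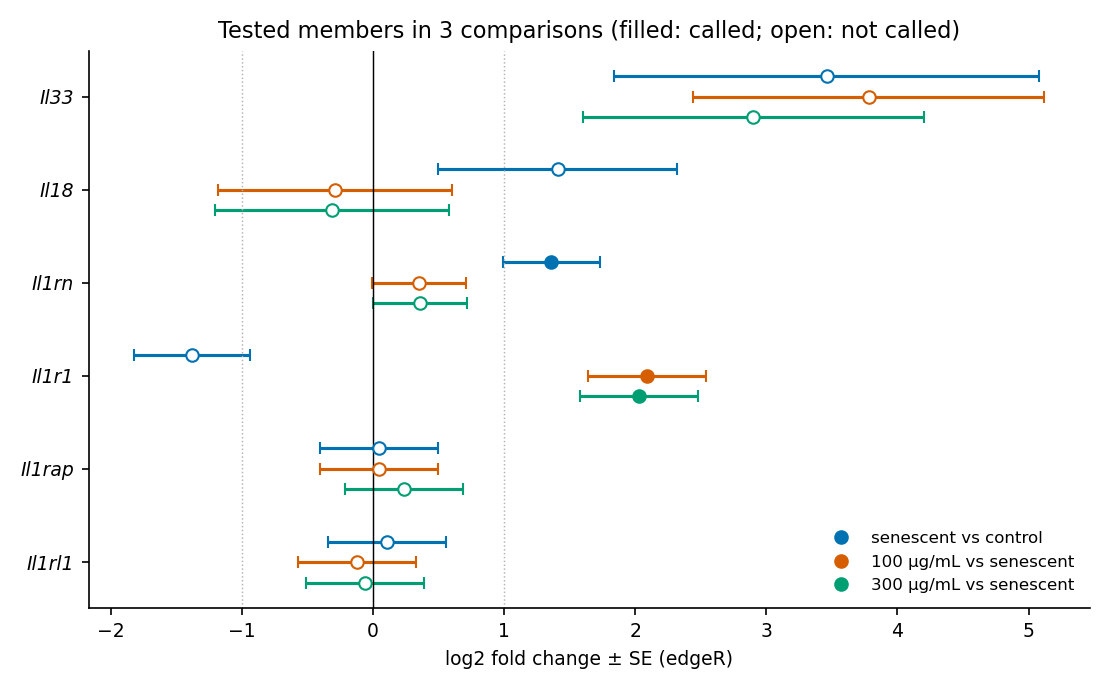
Log2 fold change (horizontal axis) with its SE as whiskers for the 6 tested members in 3 comparisons, given by colour. Filled points were called, and dotted lines mark a log2 fold change of −1 and 1. Il1r1 lies at −1.38 for senescence and at 2.09 and 2.03 for the doses, while Il1rap and Il1rl1 lie between −0.12 and 0.24 throughout.

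Neither the accessory chain gene Il1rap nor the IL-33 receptor gene Il1rl1 was called in any of the 6 comparisons, and whether their changes differed from those of Il1r1 was not tested. Il1rap (ENSMUSG00000022514, chromosome 16, 26400350 to 26548880), the accessory protein shared by the IL-1 and IL-33 receptors, was at 10.2 ± 2.05 CPM in control MEFs and 10.6 ± 5.56 CPM in untreated SnCs. It was at 10.9 ± 2.61 and 12.4 ± 6.22 CPM with 100 and 300 µg/mL Fucoidan-FV. Mouse 6 was lowest in each group (8.93, 4.28, 7.92 and 8.05 CPM), and all groups overlapped. Its log2 fold changes in the 3 comparisons were 0.05, 0.05 and 0.24 (SE 0.45 in each), with adjusted p of 0.874 to 0.968. The mice differed in direction: in mouse 6 the log2 ratios were −1.06 for senescence and 0.89 and 0.91 for the doses, and in mouse 5 they were 0.72, −0.30 and −0.62. Of its exonic bases 9.84% lie opposite another gene, whose reads the counting could have divided, since the strand setting of the counting was not given in the sources used here.
Il1rl1 (ENSMUSG00000026069, chromosome 1, 40468730 to 40504575), which encodes the IL-33 receptor ST2, was at 25.2, 17.0 and 8.55 CPM in control mice 4, 5 and 6. Untreated SnCs had 28.7, 18.8 and 7.17 CPM in the same order. Mouse 4 was highest and mouse 6 lowest in both groups, while at 100 µg/mL Fucoidan-FV all 3 mice lay between 16.0 and 17.2 CPM. The 300 µg/mL values were 22.2, 13.3 and 16.8 CPM. The log2 fold changes were 0.11 for senescence and −0.12 and −0.06 for the doses (SE 0.45 in each, adjusted p of 0.917 to 0.972). In mouse 6 the log2 ratios were −0.25 for senescence and 1.16 and 1.23 for the doses, while mice 4 and 5 were lower at both doses than without treatment. RSEM's mean transcript length of Il1rl1, which has 5 transcripts in the counting, was 2053 to 3135 bases in control libraries, 2409 to 2848 bases in SnCs, 2561 to 3726 bases at 100 µg/mL and 2870 to 3150 bases at 300 µg/mL. The lengths at 300 µg/mL lay above all of those in SnCs, and every other pair of groups overlapped.

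The 2 doses did not differ in any member by the test. With edgeR 0 of the 6 tested members were called between 300 and 100 µg/mL, 0 had an unadjusted p under 0.05, and DESeq2 called 0, in a comparison in which 0.00665% of all genes were called. The log2 fold change of 300 against 100 µg/mL was −0.06 for Il1r1 (SE 0.43), 0.01 for Il1rn (SE 0.36) and −0.88 for Il33 (SE 1.19). For Il18, Il1rap and Il1rl1 it was −0.02, 0.19 and 0.06. With these SE the test does not show that the doses act alike.
Set against control MEFs, treated SnCs differed in Il33 and Il1rn, so 2 of the 6 tested members were called at each dose, where 19.7% of all tested genes were called at 100 µg/mL and 18.0% at 300 µg/mL. Il1rn was 3.26-fold higher at 100 µg/mL (log2 fold change 1.71, SE 0.37, adjusted p = 0.00425) and 3.30-fold higher at 300 µg/mL (1.72, SE 0.37, adjusted p = 0.00443), and was called in all 23 alternatives at each dose. For Il33 the log2 fold change was 7.24 at 100 µg/mL (SE 1.69, adjusted p = 0.00658) and 6.36 at 300 µg/mL (SE 1.65, adjusted p = 0.013), values that rest on 5 counts in all control MEFs against 802 and 376 counts at the doses and depend on how near-zero levels are fitted. Without mouse 6 of the treated group they were 4.17 (adjusted p = 0.0419) and 5.40 (adjusted p = 0.0436), and without control mouse 4 they were 9.04 and 8.18. Without control mouse 5 the second missed the threshold (adjusted p = 0.0607). Il33 passed the count filter through the treated samples, so the filter and these calls rest on the same counts. Il1r1 was not called against control MEFs at either dose (0.70 and 0.65, SE 0.43 in each, adjusted p = 0.252 and 0.311). These comparisons share the control samples with that of SnCs against control MEFs.

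**Figure D3:**
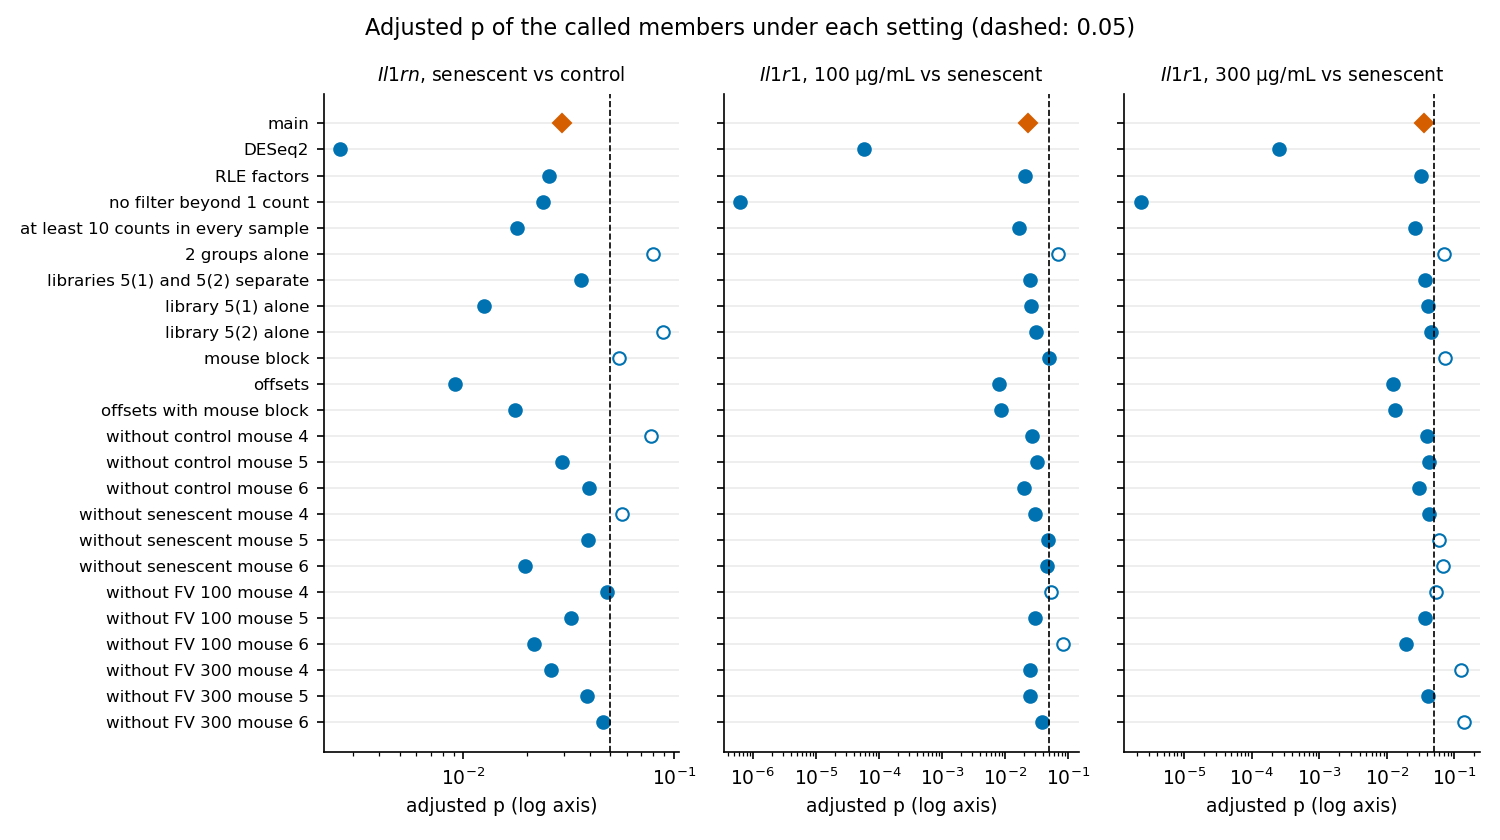
Adjusted p (log axis) of the called members under the test used throughout (diamond) and each alternative (circles, open where 0.05 or more) for Il1rn in SnCs against control MEFs and for Il1r1 at each dose against SnCs. FV 100 and FV 300 are the Fucoidan-FV groups. The alternatives run from 0.0026 to 0.0889 for Il1rn, from 6.35e-07 to 0.0836 for Il1r1 at 100 µg/mL and from 2.27e-06 to 0.138 at 300 µg/mL.

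The other genes of the pathway are given by list. Among 6 further ligands and binding proteins of the family, IL-18 binding protein (Il18bp) was the 1 gene tested, and it was not called. Of 7 further receptors of the family 3 were tested, and none was called between SnCs and control MEFs or at a dose against SnCs, while 1 was called higher and 1 lower at 300 µg/mL against control MEFs. Several of these receptors lie beside Il1r1 and Il1rl1 on chromosome 1 and were looked up for that position. The decoy receptor gene Il1r2 had 0 counts in all control mice, 11, 26 and 1 counts in SnCs of mice 4, 5 and 6, 0, 5 and 0 at 100 µg/mL, and 16, 22 and 9 at 300 µg/mL. It was the gene called higher at 300 µg/mL against control MEFs (adjusted p = 0.0298), and its fitted fold change depends on how levels of 0 are fitted. Il1r2 passed the count filter through the samples at 300 µg/mL, so the filter and this call rest on the same counts. Il1rl2, the IL-36 receptor, was at 6.40 ± 0.696 CPM in control MEFs and 3.67 ± 0.739 CPM in SnCs (log2 fold change −0.80, SE 0.45, adjusted p = 0.294). Il18r1, the ligand-binding chain for IL-18, had 0 counts in every library, and its partner Il18rap was at 1.42 ± 0.669 CPM in control MEFs and 0.497 ± 0.185 CPM in SnCs (−1.5, SE 0.90, adjusted p = 0.335). Il18rap was at 0.219 ± 0.162 CPM at 100 µg/mL and 0.0781 ± 0.0433 CPM at 300 µg/mL, where it was called lower against control MEFs (−4.11, SE 1.04, adjusted p = 0.0112) with 1, 2 and 3 counts. It passed the count filter through samples of the other groups.
Of 19 genes of the inflammasome and cytokine processing 13 were tested, and the median log2 fold change was −0.11 in SnCs against control MEFs (0.07 over all tested genes), −0.19 at 100 µg/mL against SnCs (−0.02) and −0.13 at 300 µg/mL (0.00). Casp12, a caspase encoded beside the inflammatory caspases, was the 1 gene of the list called, and it rose at both doses. It was at 26.3 ± 3.58 CPM in SnCs, 74.7 ± 31.6 CPM at 100 µg/mL (log2 fold change 1.5, SE 0.33, adjusted p = 0.0255) and 82.4 ± 20.2 CPM at 300 µg/mL (1.65, SE 0.33, adjusted p = 0.0248). Its adjusted p stayed under 0.05 in 20 and 19 of 23 alternatives, reaching 0.089 without mouse 6 at 100 µg/mL and 0.131 without mouse 6 at 300 µg/mL.
Of 38 genes that carry the signal from the receptor (MyD88, IRAK and TRAF proteins, TAK1 and IκB kinases, NF-κB subunits and their inhibitors) 37 were tested. None was called in these 3 comparisons, in which 8.42%, 2.69% and 1.64% of all tested genes were, and the medians were −0.20, −0.13 and 0.00. Against control MEFs 1 rose and 2 fell at each dose, where 19.7% and 18.0% of all tested genes were called. Irak3, an inhibitory member of the IRAK proteins, rose by 2.05 at 100 µg/mL and 2.34 at 300 µg/mL on the log2 scale (adjusted p = 0.00081 and 0.000377). Tnfaip3, which encodes the NF-κB inhibitor A20, fell by 2.20 and 1.66 (adjusted p = 0.000966 and 0.00562), and the kinase gene Map2k3 by 1.39 and 1.02 (adjusted p = 7.78e-05 and 0.000729).

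Of 30 genes that IL-1 is known to induce in fibroblasts 19 were tested, and 3 rose and 1 fell in SnCs against control MEFs, where 4.47% of all tested genes were called higher and 3.95% lower. The medians of this list were −0.05 in that comparison, 0.25 at 100 µg/mL and 0.19 at 300 µg/mL. Icam1, a leukocyte adhesion molecule, rose by 5.82 on the log2 scale (SE 0.70, adjusted p = 0.000204), from 0.107 ± 0.147 to 7.90 ± 1.96 CPM. Its control level rests on 0, 14 and 1 counts in mice 4, 5 and 6, and without control mouse 5 the log2 fold change was 8.18. Icam1 passed the count filter through senescent samples, with or without Fucoidan-FV, so the filter and this call rest on the same counts. Ptges, a prostaglandin E synthase, rose by 1.51 (SE 0.45, adjusted p = 0.0431). Mmp13, a collagenase, rose by 2.69 (SE 0.79, adjusted p = 0.043), from 5, 4 and 1 counts in control mice to 28, 9 and 26 counts, and the gelatinase Mmp9 fell from 13.2 ± 11.9 to 1.42 ± 0.625 CPM (−3.22, SE 0.77, adjusted p = 0.0161).
At 100 µg/mL Fucoidan-FV 3 of the 19 rose and none fell against SnCs, where 1.1% of all tested genes were called higher and 1.6% lower. Mmp13 reached 10.5 ± 2.86 CPM from 0.722 ± 0.289 CPM (3.84 on the log2 scale, SE 0.71, adjusted p = 0.0112), the neutrophil chemokine Cxcl5 22 ± 18.1 CPM from 1.11 ± 0.866 CPM (4.32, SE 1.11, adjusted p = 0.0471), and the adhesion molecule Vcam1 66.8 ± 16.3 CPM from 32.6 ± 7.68 CPM (1.04, SE 0.26, adjusted p = 0.0463). At 300 µg/mL Mmp13 alone was called (7.09 ± 6.35 CPM, 3.28, SE 0.70, adjusted p = 0.0297), where 1.64% of all tested genes were called. Against control MEFs 6 rose and 1 fell at 100 µg/mL, and 3 rose and 2 fell at 300 µg/mL, in comparisons with 19.7% and 18.0% of all tested genes called. Several of these calls depend on the fit. With the mouse number as a block the adjusted p was 0.104 for Cxcl5 and 0.0561 for Vcam1 at 100 µg/mL, and for Mmp13 0.0592 in SnCs against control MEFs and 0.0525 at 300 µg/mL. Leaving out single mice gave adjusted p of up to 0.151 for Cxcl5, 0.153 for Vcam1, 0.149 for Mmp13 in SnCs against control MEFs and 0.188 for Mmp13 at 300 µg/mL. For Mmp9 it was 0.0875 without control mouse 6 and 0.0794 without senescent mouse 4. Single mice also moved the sizes: without mouse 6 of the treated group the log2 fold change was 3.43 for Cxcl5 at 100 µg/mL and 2.28 for Mmp13 at 300 µg/mL, without senescent mouse 5 it was 5.13 for Cxcl5, and in SnCs against control MEFs it was 3.36 for Mmp13 without control mouse 4 and −2.22 for Mmp9 without control mouse 6. Icam1 was called in all 22 alternatives and Mmp13 at 100 µg/mL likewise. However, Mmp13 passed the count filter only with samples of the treated groups. The filter and its calls at the doses therefore rest on the same counts. All exonic sequence of Mmp13 lies in a single transcript, the kind of gene in which libraries 5(1) and 5(2) differed. For Icam1 it is 92.4%, just under the 95% above which that difference was measured. Of the exonic bases of Icam1 10.3% lie opposite another gene, whose reads the counting could have divided, as for Il1rap.

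**Figure D4:**
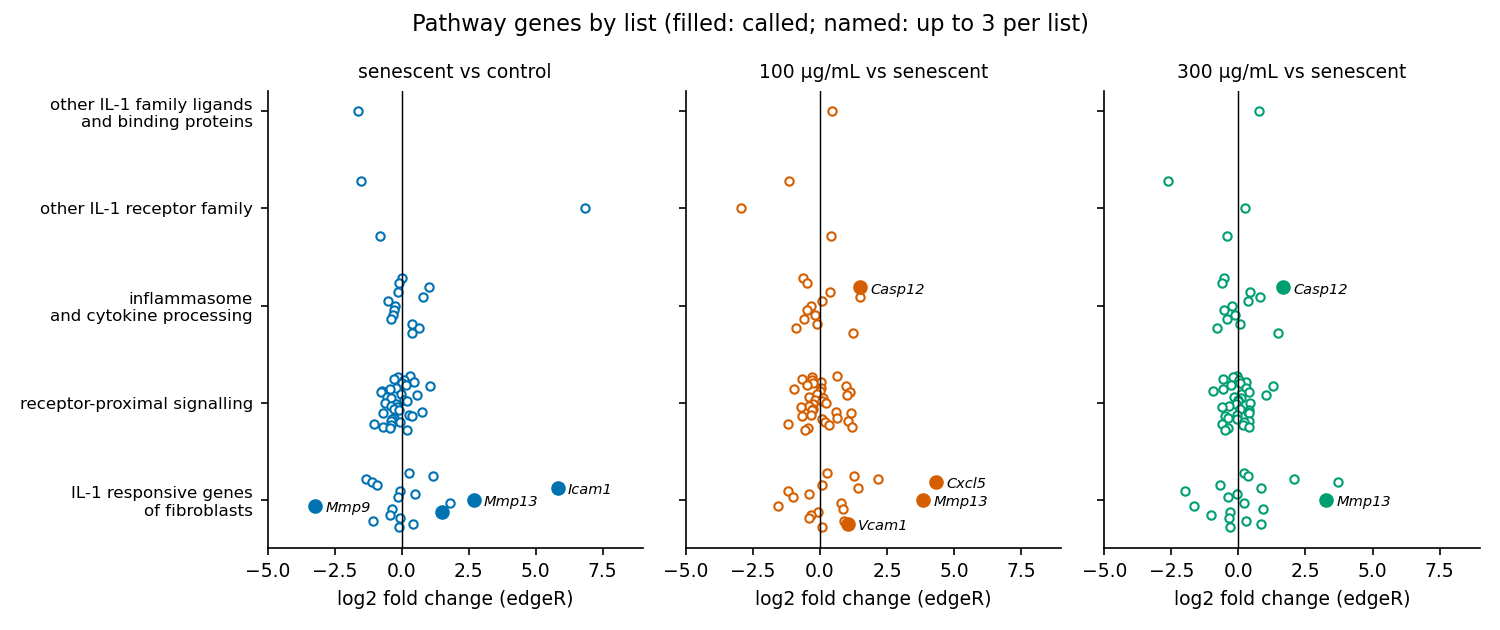
Log2 fold change (horizontal axis) of each tested gene of 5 pathway lists in 3 comparisons. Filled points were called, and up to 3 per list are named. The receptor-proximal signalling genes hold no filled point in any panel, and the called genes lie among the IL-1 responsive genes and at Casp12.

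The genes whose levels were most like those of each member over the 12 samples were listed by Pearson correlation of log2 CPM, as a description. For Il1r1 these were Mllt6 (r = 0.948), Rasa3 (0.927) and Bahcc1 (0.925). For Il33 they were Tfr2 (0.955), Jmjd8 (0.95) and Scara5 (0.945), and for Il1rn Pygl (0.967), Glt8d1 (0.965) and Yipf4 (0.962). Il18 was nearest to Nkd2 (0.975), Frmd3 (0.975) and Nbeal2 (0.968), Il1rl1 to Cyth3 (0.908), Map2k4 (0.904) and Eps8 (0.891), and Il1rap to Invs (0.913), Megf10 (0.878) and Ptprg (0.876). No member was among the 3 nearest genes of another member. All of these correlations are over the same 12 samples, which differ by group and in depth.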

How the data were processed

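RNA-Seq of 13 MEF libraries was analysed. The authors trimmed reads with Trimmomatic, aligned them with STAR 2.7.11b to GRCm39 and deposited RSEM 1.3.1 expected counts per gene without normalization, one file per library and a table of all libraries, between which the largest difference was 0. RSEM's TPM, which the authors deposited in the same files, is scaled by transcript length and library, and was used without a test, as was RSEM's mean transcript length. Whether counting used strand is not given in the sources used here.

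Expected counts were rounded, libraries 5(1) and 5(2) were summed, and genes kept by filterByExpr (minimum count 10, minimum total 15) were compared by edgeR 4.0.16 under R 4.3.3 (quasi-likelihood test, TMM factors, 1 fit over 4 groups, Benjamini-Hochberg adjustment over 15034 genes in each of 6 comparisons). The thresholds, adjusted p under 0.05 and absolute log2 fold change over 1, are those of the paper's methods. Simulated counts with changes of known size were used to check the test. Replicates are labelled by mouse, and p-values measure the spread between these samples. With totals of 22782536 to 31278750 counts, a count of 0 allows up to 3 counts.

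Mouse numbers are shared by the 4 groups in the labels, so same-numbered samples were taken as one animal. Deviations from the group mean correlated between such samples with a median r of −0.00625 (18 pairs, −0.204 to 0.425, 8 above 0.1). The alternatives were DESeq2 1.42.0, RLE factors, other count filters, a fit of only the groups compared, either or both libraries of control mouse 5, the mouse as a block, offsets (single-transcript sequence, GC content and length, per gene and library) with the block or without it, each mouse left out, and the adjusted p alone.

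The members, gene lists and marker lists were chosen with earlier results of these data known. Pathway genes were named where they were called in SnCs against control MEFs or at a dose against SnCs, at most 3 per list and comparison by absolute log2 fold change, and likeness was given for the 3 nearest tested genes. Ptges, and Irak3, Tnfaip3 and Map2k3 for the doses against control MEFs, were named outside this rule. How their calls depend on the alternatives is not given. Receptors beside Il1r1 were named after their values were seen.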

Additional observations from a re-analysis of the deposited data

How the results depend on the processing

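The count of called members between SnCs and control MEFs was 1 as reported and 2 with DESeq2, with at least 10 counts in every sample, with libraries 5(1) and 5(2) separate, with library 5(1) alone, with offsets and with offsets plus the mouse block. It was 3 with no filter beyond 1 count, and 0 with the 2 groups alone, with library 5(2) alone or with the mouse as a replicate block. At each dose against SnCs it was 2 with no filter and 0 with the 2 groups alone, and at 300 µg/mL it was 0 with the mouse block. Against control MEFs it was 1 at each dose when at least 10 counts were required in every sample, which leaves Il33 out. Leaving out 1 mouse gave 0 to 2 called members for SnCs against control MEFs, 0 to 1 for each dose against SnCs, 2 for 100 µg/mL against control MEFs and 1 to 2 for 300 µg/mL against control MEFs. The mouse block changed no other call of a member in the 6 comparisons.

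Of 543 values of single members under the alternatives, 482 kept direction and call, 16 lost and 11 gained the call, and 34 turned sign, none of them of a called change. These signs turned near 0. For Il1rap in SnCs against control MEFs (0.05) the value was −0.01 with library 5(1) alone, −0.06 with the replicate block, −0.08 with offsets and −0.10 with offsets and block, and at 100 µg/mL against SnCs −0.04 with offsets and −0.05 with offsets and block. For Il1rl1 it was −0.11 with offsets and −0.10 with offsets and block in SnCs, 0.06 with the block at 100 µg/mL and 0.09 with the block at 300 µg/mL. For Il18 it was 0.11 with offsets and 0.24 with offsets and block at 100 µg/mL, and 0.10 with offsets and block at 300 µg/mL. Leaving out single mice, Il1rap ran from −0.25 to 0.44 in SnCs against control MEFs, −0.15 to 0.53 at 100 µg/mL and −0.25 to 0.58 at 300 µg/mL against SnCs. Il1rl1 ran from −0.40 to 0.52, −0.36 to 0.55 and −0.42 to 0.49 in the same order. Il18 ran from −0.41 to 0.21 and −0.53 to 0.09 at the doses, and Il1rn from −0.05 to 0.58 at 100 µg/mL. The cause of these changes was not tested. Where a fit leaves a group with 2 mice, they are assumed to vary like the other groups. Depth limits Il1a and Il1b, with at most 3 counts in a sample, and Il33 in control MEFs.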
